A study of Mus musculus with 9 samples.

Results

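The 10 genes described here encode the NFAT transcription factors, the subunits of the phosphatase calcineurin and the calcineurin inhibitor Rcan1: Nfatc1, Nfatc2, Nfatc3, Nfatc4, Nfat5, Ppp3ca, Ppp3cb, Ppp3cc, Ppp3r1 and Rcan1. They were picked by gene symbol and Entrez identifier, with the response of these tumors already in view, from the 18755 genes of the RNA sequencing counts. All 10 were found and all passed the filter on low counts, as did 13966 genes in all. The lowest count of any of them in any tumor was 110. RNA came from snap-frozen pieces of 4T1 primary tumors, 1 library per tumor. 4T1 is a mouse mammary carcinoma line, and each female BALB/c mouse, 6 to 10 weeks old, received 1000000 of its cells into mammary fat pad number 9. From day 15 after injection, mice were treated daily by oral gavage for 5 days. The vehicle group received 0.5% Natrosol alone (3 tumors, replicates 1 to 3). The other group received 50 mg/kg of BI 853520 dissolved in 0.5% Natrosol (6 tumors, replicates 4 to 9). BI 853520, abbreviated BI, is an inhibitor of focal adhesion kinase. The labels name no genotype or transgene, and both groups carried the same cell line in hosts with their own immune cells and stroma. Counts on genes summed to 21727879, 22589489 and 33850245 in the vehicle tumors and to between 16931607 and 22349873 in the BI tumors.

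Calcineurin is a phosphatase that is switched on by calcium and calmodulin. It is built of a catalytic A subunit (Ppp3ca, Ppp3cb or Ppp3cc) and a regulatory B subunit (Ppp3r1 outside the testis). It removes phosphates from NFATc1 to NFATc4, which then enter the nucleus and bind DNA, often next to AP-1 proteins, until kinases phosphorylate them again and they leave. NFAT factors are known from T cell activation, osteoclast formation, blood vessels and invasive breast carcinoma cells. Rcan1 binds and inhibits calcineurin, and its short transcript is itself switched on by NFAT. Nfat5 shares the DNA-binding domain but lacks the calcineurin docking region and responds to osmotic stress.

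Levels are given as CPM, counts scaled to a common library size by the TMM method, which compares a gene between tumors. Where a gene is called most abundant in its list below, it had the highest mean CPM over all 9 tumors, without regard to length. The epithelial keratins of the tumor cells were abundant. Krt18 stood at 594, 627 and 515 CPM in the vehicle tumors and Krt8 at 493, 528 and 414 CPM, whereas Krt5, Krt14 and Epcam stayed below 3 CPM in every vehicle tumor, and Epcam reached at most 10.3 CPM in a BI tumor. Markers of T cells, macrophages, endothelium and fibroblasts were present as well, so that each value is a mixture of cell types. For every difference below, fewer cells of a type and less RNA per cell cannot be told apart.

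To compare the genes with each other, CPM were divided by the deposited gene length (RPKM). Over the 9 tumors, Ppp3r1 had the highest mean level with 61.1 RPKM, followed by Ppp3ca with 46.8, Ppp3cb with 34.3 and Nfat5 with 34.0 RPKM. Nfatc3 (16.7 RPKM) and Ppp3cc (16.6 RPKM) came next, then Nfatc1 with 10.1, Rcan1 with 9.00, Nfatc2 with 4.70 and Nfatc4 with 1.99 RPKM. Some neighbours in this order could not be separated. Nfatc3 exceeded Ppp3cc in 5 of the 9 tumors, Ppp3cb exceeded Nfat5 in 6 and Ppp3ca exceeded Ppp3cb in 7. By contrast, Nfat5 exceeded Nfatc3, Ppp3cc exceeded Nfatc1, Rcan1 exceeded Nfatc2, and Nfatc2 exceeded Nfatc4 in all 9 tumors. Taken over the vehicle tumors alone, 6 of the 10 genes had another rank, and over the BI tumors alone, 2 had. The subunits of the phosphatase were thus more abundant per length than the factors it acts on, except that Nfat5, which it does not act on, stood among the subunits and Nfatc3 level with Ppp3cc.

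Because the genes were chosen with the contrast of BI against vehicle known, their own differences are given as a description, without p-values, and calls among them are counts that support nothing further. With a threshold of 0.05 on the p-value that edgeR's quasi-likelihood test gave over 13966 genes, adjusted after Benjamini and Hochberg, 4 of the 10 were called higher in BI tumors (Nfatc1, Nfatc2, Nfatc4 and Ppp3ca) and 0 lower. Of all genes tested, 14.6% were called higher and 14.1% lower, 28.7% in all. Under the study's own cutoffs, a 1.5 fold change together with an unadjusted p of 0.05, 3 of the 10 were higher (Nfatc2, Nfatc4 and Ppp3ca) and 0 lower, beside 9.57% and 3.57% of all genes. Every BI tumor lay above every vehicle tumor for Nfatc1 and Nfatc2 and below for Ppp3cb, and the groups overlapped for the other 7. Over all genes the groups lay fully apart upward for 14.1% and downward for 14.0%, 28.1% in all. The median log2 fold change of the 10 genes was 0.07, beside 0.00 over all genes tested. The number called higher was 2 without vehicle tumor 1, 1 without vehicle tumor 2, 2 without vehicle tumor 3 and 2 without BI tumor 7, while the number higher among all genes was 1474, 1516, 1332 and 1710 in the same fits, against 2040 with all tumors. Nfatc2 was among those called in each of these cases.

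**Figure D1:**
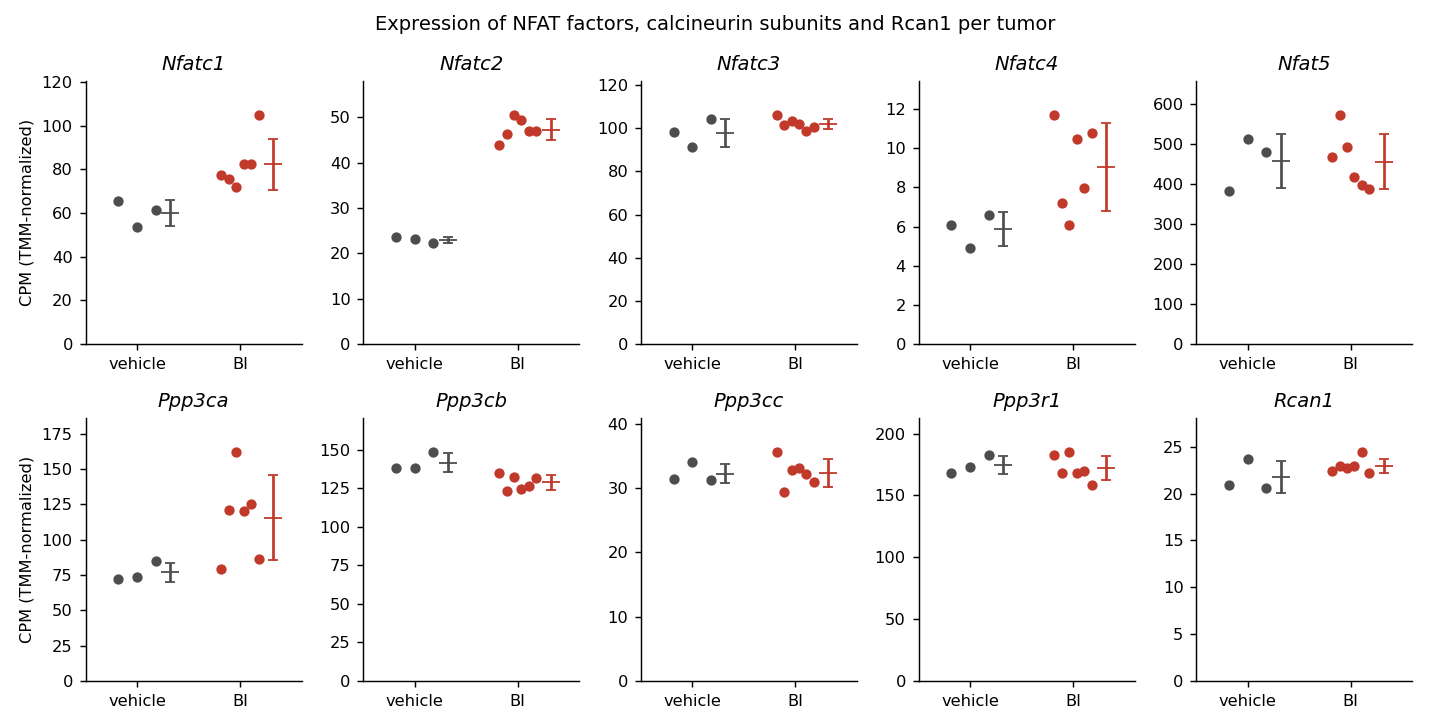
CPM of the 10 genes (vertical axes, each from 0) in 3 vehicle tumors (grey) and 6 BI tumors (red), with the mean and standard deviation beside the points. The groups lie fully apart for Nfatc2, Nfatc1 and, downward, Ppp3cb, and Ppp3ca has the widest spread among BI tumors of the calcineurin subunits.

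Among the calcineurin subunits, the catalytic Ppp3ca (chr3:136333088-136600691, plus strand, mm9) had the largest difference. Its level was 72.2, 73.5 and 84.8 CPM in the vehicle tumors. In the BI tumors it was 79.1, 121, 162, 120, 126 and 86.4 CPM, from replicate 4 to replicate 9. Replicates 5 to 8 were clearly above all vehicle tumors, replicate 9 only slightly, and replicate 4 lay within the vehicle range. The log2 fold change was 0.59 with a standard error (SE) of 0.187, and Ppp3ca was no longer called without vehicle tumor 1, 2 or 3 or BI tumor 5, 7 or 8. The spread among BI tumors was 25.9% of their mean, against 9.05% in the vehicle tumors.

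Ppp3cb (chr14:21318586-21365795, minus strand), the other widely expressed catalytic subunit, went slightly the other way. It had 138, 138 and 148 CPM in the vehicle tumors, and its lowest, median and highest values in the BI tumors were 123, 129 and 135 CPM. All 6 BI tumors were below all 3 vehicle tumors, but the gap was small, with a log2 fold change of -0.14 (SE 0.0524). edgeR did not call this difference and DESeq2 called it lower. Ppp3cc (chr14:70617705-70689257, minus strand), the catalytic subunit best known from testis, had 31.5, 34.0 and 31.3 CPM in vehicle tumors and 29.4 to 35.6 CPM in BI tumors, with overlapping groups (log2 fold change 0.01, SE 0.0714).

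The regulatory subunit Ppp3r1 (chr11:17059266-17100378, plus strand) was level between the groups within its spread. It had 168, 173 and 182 CPM in the vehicle tumors and 159, 169 and 185 CPM as the lowest, median and highest of the BI tumors (log2 fold change -0.02, SE 0.0601). Its annotated exons overlap Wdr92 on the same strand, so that reads in the shared stretch can belong to either gene.

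Expressed as shares of the summed RPKM of the 3 catalytic genes, the groups lay apart for Ppp3cb and overlapped for Ppp3ca and Ppp3cc. A share also moves with the other genes in the sum: mean Ppp3ca was 35.0 RPKM in vehicle and 52.7 RPKM in BI tumors, and mean Ppp3cb 36.5 and 33.2 RPKM. Ppp3cb gave 42.0, 41.2 and 41.1% of the sum in the vehicle tumors and 39.1, 31.1, 27.3, 30.9, 30.7 and 38.0% in the BI tumors. Ppp3ca gave 38.9, 38.7 and 41.6% in the vehicle tumors and 40.4 to 59.2% in the BI tumors, with replicate 4 inside the vehicle range. Ppp3ca and Ppp3cb were thus about equally abundant per length in vehicle tumors, and Ppp3ca led in each BI tumor. The catalytic genes summed to 88.1 ± 4.37 RPKM (SD, n = 3) in vehicle and 103 ± 13.2 RPKM (SD, n = 6) in BI tumors. Relative to Ppp3r1, this sum was 1.43 ± 0.0141 in vehicle tumors and 1.69 ± 0.180 in BI tumors, with replicate 4 (1.38) below the vehicle tumors.

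**Figure D2:**
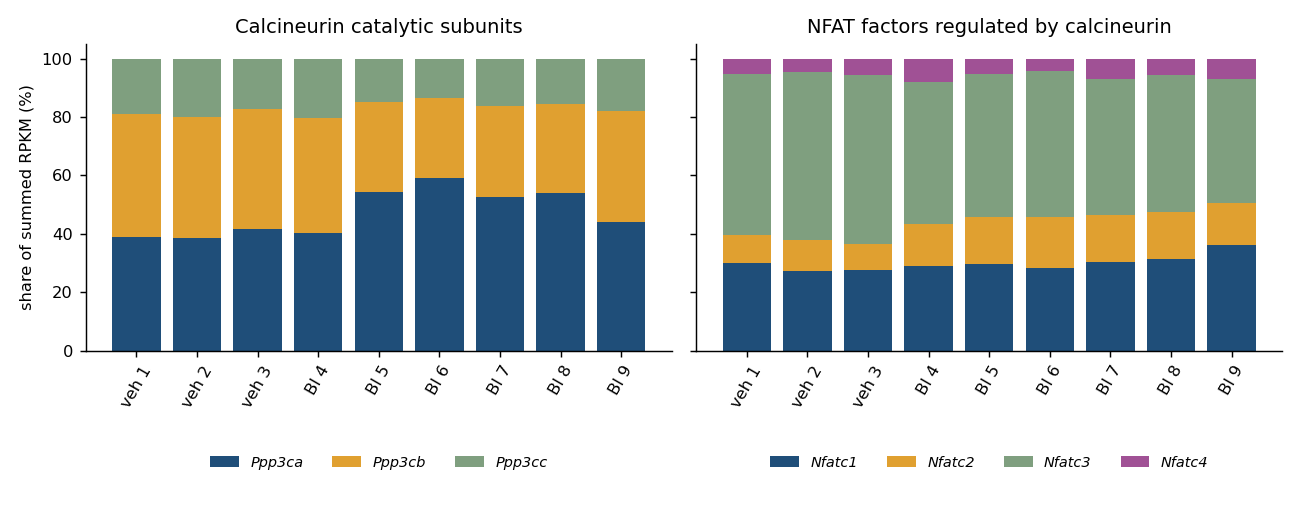
Share of the summed RPKM (percent, vertical axis) held by each catalytic subunit of calcineurin (left) and by each of Nfatc1 to Nfatc4 (right), 1 bar per tumor. Ppp3cb holds 41.1 to 42.0% in vehicle and 27.3 to 39.1% in BI tumors, and Nfatc2 8.97 to 10.5% and 14.4 to 17.6%.

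Rcan1 (chr16:92392198-92466391, minus strand), the inhibitor that NFAT itself induces, was nearly level. It had 20.9, 23.7 and 20.6 CPM in the vehicle tumors, and the BI tumors had 22.4, 22.9, 22.7, 22.9, 24.4 and 22.2 CPM. Vehicle tumor 2 stood above 5 of the 6 BI tumors, and the log2 fold change was 0.08 (SE 0.0715). The counts pool the transcripts of both Rcan1 start sites. The 250 bases before each start are shown because NFAT acts on 1 of them, the internal start, while a count per gene cannot tell the 2 transcripts apart. Capitals mark GGAAA, the core of NFAT sites, on either strand (TTTCC when it lies on the other strand), and TGANTCA, the AP-1 motif, which reads the same on both strands apart from its middle base.

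Rcan1 internal start (chr16:92400324-92400573, minus strand, mm9): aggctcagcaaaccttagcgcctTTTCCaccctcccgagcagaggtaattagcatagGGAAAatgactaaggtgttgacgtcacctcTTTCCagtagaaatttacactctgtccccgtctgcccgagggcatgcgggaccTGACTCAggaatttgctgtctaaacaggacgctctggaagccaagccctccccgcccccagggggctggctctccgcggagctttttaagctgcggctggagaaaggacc
Rcan1 distal start (chr16:92466415-92466664, minus strand, mm9): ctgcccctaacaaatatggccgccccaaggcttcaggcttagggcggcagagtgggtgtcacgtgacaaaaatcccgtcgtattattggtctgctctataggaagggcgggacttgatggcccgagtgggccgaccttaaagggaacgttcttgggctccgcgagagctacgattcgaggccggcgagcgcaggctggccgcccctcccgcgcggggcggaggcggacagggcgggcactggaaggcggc

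The internal window held 3 GGAAA cores, beginning at -227, -193 and -163 from the start, and TGACTCA at -110, and the distal window held neither. Of 32851 mouse promoter windows of 250 bases from RefSeq, 55.6% held at least 1 core, 6.39% at least 3, 6.75% a TGANTCA and 0.457% both 3 cores and a TGANTCA. A match describes letters and not a bound site. The other Rcan family members, which also bind calcineurin, were not called, Rcan2 by a narrow margin. Rcan2 had 0.367, 0.760 and 1.68 CPM in vehicle tumors and 1.16 to 3.48 CPM in BI tumors (log2 fold change 1.26, SE 0.439, edgeR adjusted p = 0.0501). It was called with RLE scaling, with no filter, with the filter of 1 CPM in 3 tumors, by DESeq2 (adjusted p = 0.0150) and without vehicle tumor 3 or BI tumor 6. Its largest adjusted p was 0.166, by edgeR without vehicle tumor 1. Rcan3 had 64.6, 52.7 and 59.2 CPM in vehicle and 51.4 to 62.4 CPM in BI tumors (log2 fold change -0.06, SE 0.0752). These 2 family members were named after their values were seen.

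Among the NFAT factors, Nfatc2 (NFAT1, chr2:168301910-168427157, minus strand) had the largest difference of the 10 genes. Its level was 23.5, 23.1 and 22.4 CPM in the vehicle tumors and 43.8, 46.3, 50.4, 49.5, 46.9 and 47.0 CPM in the BI tumors. The lowest BI tumor was well above the highest vehicle tumor, and the spread within groups was 2.54% and 5.01% of the mean. The log2 fold change was 1.04 (SE 0.0648), a ratio of means of 2.06, and it stayed between 1.02 and 1.06 when any tumor was left out. The windows before its 2 RefSeq starts on mm9 are shown for the same motifs, since this is the member that differed most.

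Nfatc2 upstream start (chr2:168427158-168427407, minus strand, mm9): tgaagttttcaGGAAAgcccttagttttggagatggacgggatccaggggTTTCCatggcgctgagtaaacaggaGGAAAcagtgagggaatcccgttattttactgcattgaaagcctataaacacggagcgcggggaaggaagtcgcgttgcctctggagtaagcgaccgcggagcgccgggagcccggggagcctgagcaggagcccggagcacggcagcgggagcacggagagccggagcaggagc
Nfatc2 downstream start (chr2:168415866-168416115, minus strand, mm9): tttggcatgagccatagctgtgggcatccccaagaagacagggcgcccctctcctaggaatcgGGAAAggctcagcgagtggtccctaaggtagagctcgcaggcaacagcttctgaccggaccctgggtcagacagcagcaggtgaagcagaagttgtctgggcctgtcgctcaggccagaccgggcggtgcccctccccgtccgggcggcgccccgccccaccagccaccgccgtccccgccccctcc

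The upstream window held 3 cores, at -239, -200 and -175, the downstream window 1 core at -187, and neither a TGANTCA. RefSeq windows were found for 7 of the 10 genes, 10 windows in all, of which 7 held at least 1 core and 1, the internal Rcan1 window, a TGANTCA. Nfatc1, Ppp3ca and Ppp3cc had no entry in the set of RefSeq promoter windows used here.

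Nfatc1 (NFAT2, chr18:80802944-80909810, minus strand), the factor that drives osteoclast formation, was higher in BI tumors by a smaller amount. It had 65.6, 53.6 and 61.3 CPM in the vehicle tumors and 77.6, 75.4, 71.9, 82.4, 82.3 and 105 CPM in the BI tumors. All BI tumors lay above all vehicle tumors, and replicate 9 stood apart at the top. The log2 fold change was 0.45 (SE 0.110). It ranged from 0.37 to 0.52 when a tumor was left out, and Nfatc1 was no longer called without vehicle tumor 2.

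Nfatc4 (NFAT3, chr14:56443632-56452780, plus strand), the least abundant of the 10, had 6.10, 4.92 and 6.60 CPM in the vehicle tumors. The BI tumors had 11.7, 7.20, 6.08, 10.5, 7.99 and 10.8 CPM. Of the 6 BI tumors 5 were above all vehicle tumors, and replicate 6 was within their range (log2 fold change 0.62, SE 0.206). Nfatc4 was no longer called with limma-voom, nor without vehicle tumor 1, 2 or 3 or BI tumor 4, 7 or 9. In Nfatc4, replicates 4, 7 and 9 were the highest, whereas in Ppp3ca replicates 4 and 9 were the lowest of the BI tumors. With the group means removed, log2 CPM of these 2 genes had a Pearson r of -0.76 over the 9 tumors, given as a description.

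Nfatc3 (NFAT4, chr8:108582740-108654437, plus strand), the most abundant of the calcium-responsive factors, did not separate the groups. It had 98.1, 91.3 and 104 CPM in vehicle tumors and 98.9, 102 and 106 CPM as the lowest, median and highest BI tumors (log2 fold change 0.06, SE 0.0536). Its exons overlap those of Esrp2 on the other strand, and the use of strand in counting is not given in the sources used here. Together the 4 calcium-responsive factors summed to 29.5, 26.4 and 29.9 RPKM in vehicle and to 34.3 to 39.1 RPKM in BI tumors. Nfatc2 took 8.97 to 10.5% of that sum in vehicle tumors and 14.4 to 17.6% in BI tumors, and Nfatc3 took 55.4 to 57.9% and 42.7 to 49.9%. Nfatc3 remained the largest share in every tumor, and the groups did not overlap for either share.

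**Figure D3:**
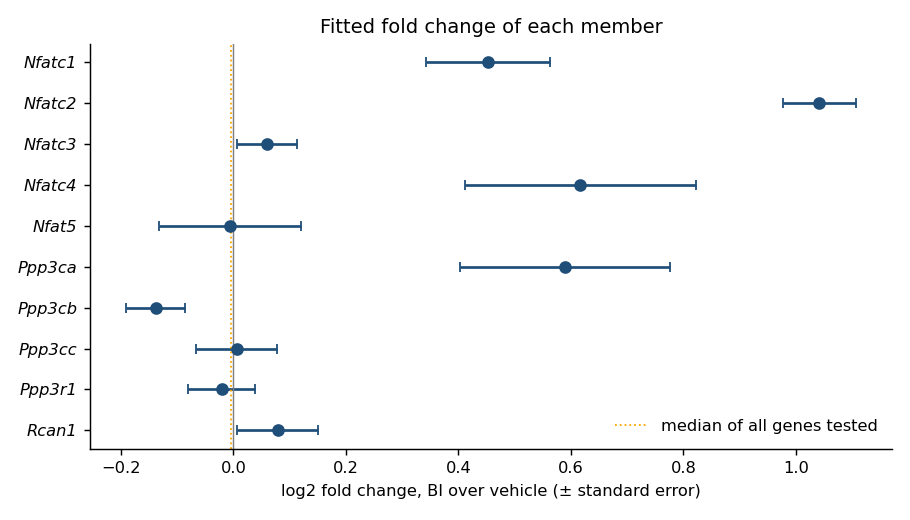
Log2 fold change of BI over vehicle (horizontal axis) for each of the 10 genes, with bars of 1 standard error, and the median of all genes tested as a dotted line. Nfatc2 lies highest at 1.04, Nfatc4, Ppp3ca and Nfatc1 lie between 0.45 and 0.62, and the other 6 lie between -0.14 and 0.08.

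Nfat5 (chr8:109817370-109903417, plus strand), the tonicity-responsive factor, was abundant and level. It had 382, 512 and 480 CPM in the vehicle tumors and 388, 443 and 572 CPM as the lowest, median and highest BI tumors (log2 fold change -0.01, SE 0.127). Its known targets, a list written with earlier results of these data known, went down in part. Of 7 tested genes of this list of 9, 0 rose and 4 fell, against 14.6% and 14.1% of all genes, and the median log2 fold change was -0.38. The myo-inositol transporter Slc5a3 had 163, 167 and 175 CPM in vehicle tumors and 117 to 135 CPM in BI tumors (log2 fold change -0.44, SE 0.0567, edgeR adjusted p = 0.000222). Slc38a2, an amino acid transporter and the most abundant of the list, though behind Slc6a6 in the mean of the BI tumors, fell from 426 ± 25.0 CPM (SD, n = 3) to 327 ± 21.2 CPM (SD, n = 6; log2 fold change -0.38, SE 0.0674, edgeR adjusted p = 0.00166). The heat shock genes Hspa1b (log2 fold change -1.76, SE 0.190) and Hspa1a (-1.32, SE 0.202) fell most. They are near-identical copies that also answer to heat shock factors, so that their separate counts are uncertain. Slc6a6, the taurine transporter, and Akr1b3, aldose reductase, named after their values were seen, did not pass the test (log2 fold changes 0.12 and 0.07).

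The other genes of the pathway were taken from 6 lists with 94 genes, of which 83 were tested. The lists, that of the Nfat5 targets among them, were written with earlier results of these data known. Their calls and adjusted p-values are therefore given as a description and support nothing further. In all, 18 rose and 10 fell (21.7% and 12.0% of those tested, beside 14.6% and 14.1% of all genes), with a median log2 fold change of 0.09. Adjusted p-values below come from the same edgeR fit and are adjusted over all 13966 genes.

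**Figure D4:**
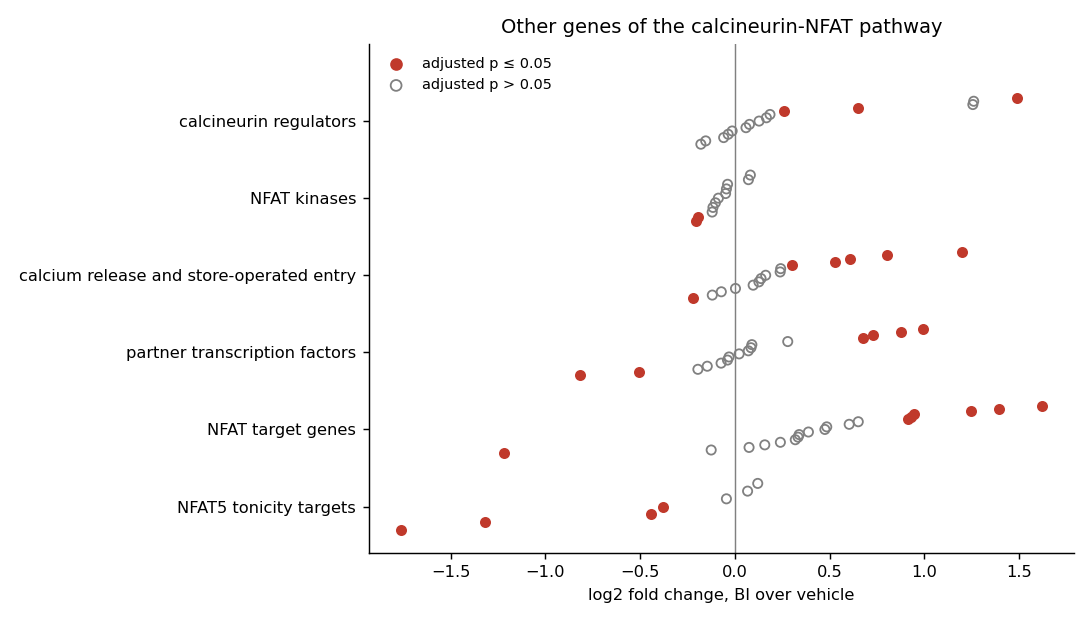
Log2 fold change of BI over vehicle (horizontal axis) for the 83 tested genes of 6 pathway lists, 1 point per gene, filled where the adjusted p was at most 0.05. For calcium entry 5 of 15 points are filled on the right and 1 on the left, for NFAT targets 6 of 19 and 1, and for the NFAT5 targets 0 of 7 and 4.

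Genes for calcium release and entry, the step before calcineurin, included 5 of 15 tested that rose and 1 that fell, with a median log2 fold change of 0.16. The phospholipase Plcg2, which releases inositol trisphosphate in B cells and myeloid cells, had 80.3, 81.0 and 84.3 CPM in vehicle and 156, 184 and 233 CPM as lowest, median and highest BI tumors (log2 fold change 1.20, SE 0.110, edgeR adjusted p = 3.59e-05). Orai1, the pore of the store-operated channel, had 19.1, 23.7 and 21.0 CPM in vehicle and 29.2 to 36.5 CPM in BI tumors (log2 fold change 0.61, SE 0.0922, edgeR adjusted p = 0.000625). Every BI tumor was above every vehicle tumor for both genes. Atp2a3, a calcium pump of hematopoietic cells, rose from 8.88 ± 0.236 to 15.5 ± 2.82 CPM (log2 fold change 0.80, SE 0.146, edgeR adjusted p = 0.00188). The more widely expressed pump Atp2a2, the most abundant of the list, had 432 ± 29.7 and 433 ± 26.2 CPM. Plcg1, the phospholipase of T cells and many other cells, fell by 0.22 on the log2 scale (SE 0.0743, edgeR adjusted p = 0.0441). That call was lost with no filter or the filter of 1 CPM in 3 tumors (edgeR adjusted p = 0.0523 and 0.0540) and without vehicle tumor 2 or 3 or BI tumor 4, 7, 8 or 9, and the log2 fold change without vehicle tumor 3 was -0.15 (edgeR adjusted p = 0.216).

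Of 15 tested regulators of calcineurin, 3 rose and 0 fell, with a median log2 fold change of 0.13. Chp1, a calcineurin B homologous protein that inhibits the phosphatase, had 137, 131 and 133 CPM in vehicle and 149 to 167 CPM in BI tumors (log2 fold change 0.26, SE 0.0527, edgeR adjusted p = 0.00357). Its relative Chp2 was rare, with 0.825, 0.716 and 0.678 CPM in vehicle and 1.08 to 3.33 CPM in BI tumors (log2 fold change 1.49, SE 0.363, edgeR adjusted p = 0.0101). Tbc1d10c (carabin), an inhibitor of calcineurin in lymphocytes, had 7.24, 5.50 and 4.89 CPM in vehicle and 8.08 to 11.4 CPM in BI tumors (log2 fold change 0.65, SE 0.166, edgeR adjusted p = 0.0125). All 3 lay fully above the vehicle range. Without vehicle tumor 3, Chp2 and Tbc1d10c no longer passed (edgeR adjusted p = 0.0519 and 0.0723).

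Of 11 kinases that phosphorylate NFAT, 0 rose and 2 fell, with a median log2 fold change of -0.09. Dyrk1a, which primes NFAT for further phosphorylation, had 133, 123 and 134 CPM in vehicle and 105 to 118 CPM in BI tumors (log2 fold change -0.20, SE 0.0544, edgeR adjusted p = 0.0191). Mapk8 (JNK1) had 44.9, 46.0 and 48.8 CPM in vehicle and 37.0 to 43.6 CPM in BI tumors (log2 fold change -0.21, SE 0.0639, edgeR adjusted p = 0.0300). Both lay fully below the vehicle range, by a small margin. Without vehicle tumor 3 neither passed (edgeR adjusted p = 0.0843 and 0.136). Without vehicle tumor 1 neither passed either (0.0764 and 0.0513 by edgeR), and Mapk8 was also lost without vehicle tumor 2 or BI tumor 4, 8 or 9. Csnk1d, a casein kinase that was about level with Csnk1a1 at the top of the list, had 225 ± 3.61 CPM in vehicle and 218 ± 5.43 CPM in BI tumors (log2 fold change -0.05, SE 0.0479).

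Transcription factors that bind DNA together with NFAT moved both ways, 4 of 16 rising and 2 falling, with a median log2 fold change of 0.05. Batf, an AP-1 factor of lymphocytes, had 4.40, 4.52 and 4.51 CPM in vehicle and 8.05, 8.62 and 10.3 CPM as lowest, median and highest BI tumors (log2 fold change 0.99, SE 0.114, edgeR adjusted p = 0.000113). Irf4, its partner in lymphocytes, had 3.25, 3.35 and 3.95 CPM in vehicle and 6.07 to 7.87 CPM in BI tumors (log2 fold change 0.88, SE 0.138, edgeR adjusted p = 0.000762). Maf, a factor of helper T cells and macrophages, rose from 112 ± 14.8 to 185 ± 22.4 CPM (log2 fold change 0.73, SE 0.111, edgeR adjusted p = 0.000625). For these 3 genes no BI tumor fell within the vehicle range. The AP-1 subunit Fosl1 (Fra-1), known from invasive carcinoma cells, went down, from 73.7, 77.0 and 67.1 CPM to 33.5 to 53.8 CPM (log2 fold change -0.82, SE 0.128, edgeR adjusted p = 0.000763). Fosb fell by 0.50 on the log2 scale (SE 0.158, edgeR adjusted p = 0.0322), a call that was lost without vehicle tumor 1 or 2 or BI tumor 4, 5, 7, 8 or 9. Its log2 fold change without vehicle tumor 2 was -0.35 (edgeR adjusted p = 0.170). Runx1, the most abundant partner, had 324 ± 22.7 CPM in vehicle and 340 ± 19.0 CPM in BI tumors.

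Of 25 genes known as NFAT targets 19 were tested, of which 6 rose and 1 fell, with a median log2 fold change of 0.47. The checkpoint receptor Lag3 had 7.47, 4.83 and 5.33 CPM in vehicle and 8.65, 11.7 and 13.0 CPM as lowest, median and highest BI tumors (log2 fold change 0.94, SE 0.160, edgeR adjusted p = 0.00127). Fasl, the death ligand of cytotoxic cells, had 2.25, 2.59 and 2.83 CPM in vehicle and 3.96 to 6.73 CPM in BI tumors (log2 fold change 0.93, SE 0.188, edgeR adjusted p = 0.00365). Enpp2 (autotaxin), which makes lysophosphatidic acid and has been linked to NFAT in carcinoma cells, had 5.59, 6.31 and 5.19 CPM in vehicle and 9.82 to 20.7 CPM in BI tumors (log2 fold change 1.40, SE 0.242, edgeR adjusted p = 0.00146). Every BI tumor was above every vehicle tumor for these 3. The other 3 that rose, outside the naming rule, were Pdcd1, Tox and Ifng, with log2 fold changes of 1.25, 1.62 and 0.91. BI replicate 4 was only slightly above the highest vehicle tumor for Pdcd1 (11.3 against 10.5 CPM) and Tox (1.89 against 1.74 CPM). For Ifng it lay within the vehicle range (2.83 CPM, against 2.25 to 2.95 CPM). Ptgs2 (cyclooxygenase 2), the most abundant target over all tumors though behind Ctsk in the mean of the BI tumors, was the gene that fell, from 322, 293 and 419 CPM to 80.4, 138 and 244 CPM as lowest, median and highest BI tumors (log2 fold change -1.22, SE 0.258, edgeR adjusted p = 0.00468). The classical T cell targets Il2, Il3 and Il5 did not exceed 3 counts in any tumor, so that no difference was detectable at this depth, and Il4, Il13 and Cd40lg were too rare to be tested. Other targets known from activated lymphocytes did not pass, among them Il2ra, Ctla4, Tnf, Egr2, Egr3 and Nr4a1 (log2 fold changes 0.47, 0.33, 0.32, 0.07, 0.24 and -0.13), which were named after their values were seen. The osteoclast targets Ctsk, Acp5 and Dcstamp did not pass either. Ctsk had 127, 60.8 and 133 CPM in vehicle and 80.3 to 330 CPM in BI tumors, and replicate 9, the tumor with the highest Nfatc1, also had the highest sums of the osteoclast-type (588 CPM), T cell (230 CPM), fibroblast (3880 CPM) and adipocyte markers (321 CPM).

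Many of these genes are also expressed by the immune cells of the tumor, and markers of such cells moved between the groups. The marker counts here and below stand beside 14.6% of all genes called higher and 14.1% lower. Of 11 T cell markers 10 rose. Their summed CPM was 93.8, 87.1 and 94.2 in the vehicle tumors and 159, 184, 219, 213, 168 and 230 in the BI tumors, a ratio of means of 2.13. Cd8a was the most abundant of them, with 17.2, 15.0 and 20.3 CPM in vehicle and 28.2 to 50.5 CPM in BI tumors. Of 7 macrophage markers all 7 rose, and their sum was 1737, 1921 and 1446 CPM in vehicle and 3297, 3534, 3349, 3306, 2780 and 3108 CPM in BI tumors, a ratio of 1.90. Mrc1 was the most abundant. Of 5 markers of NK cells 4 rose, with sums of 26.9, 22.1 and 28.4 CPM in vehicle and 50.3 to 65.7 CPM in BI tumors (ratio 2.32, Prf1 most abundant). The ratio of means of Nfatc2, 2.06, lay between those of the macrophage and T cell sums, but the part of cell numbers in the difference was not tested.

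**Figure D5:**
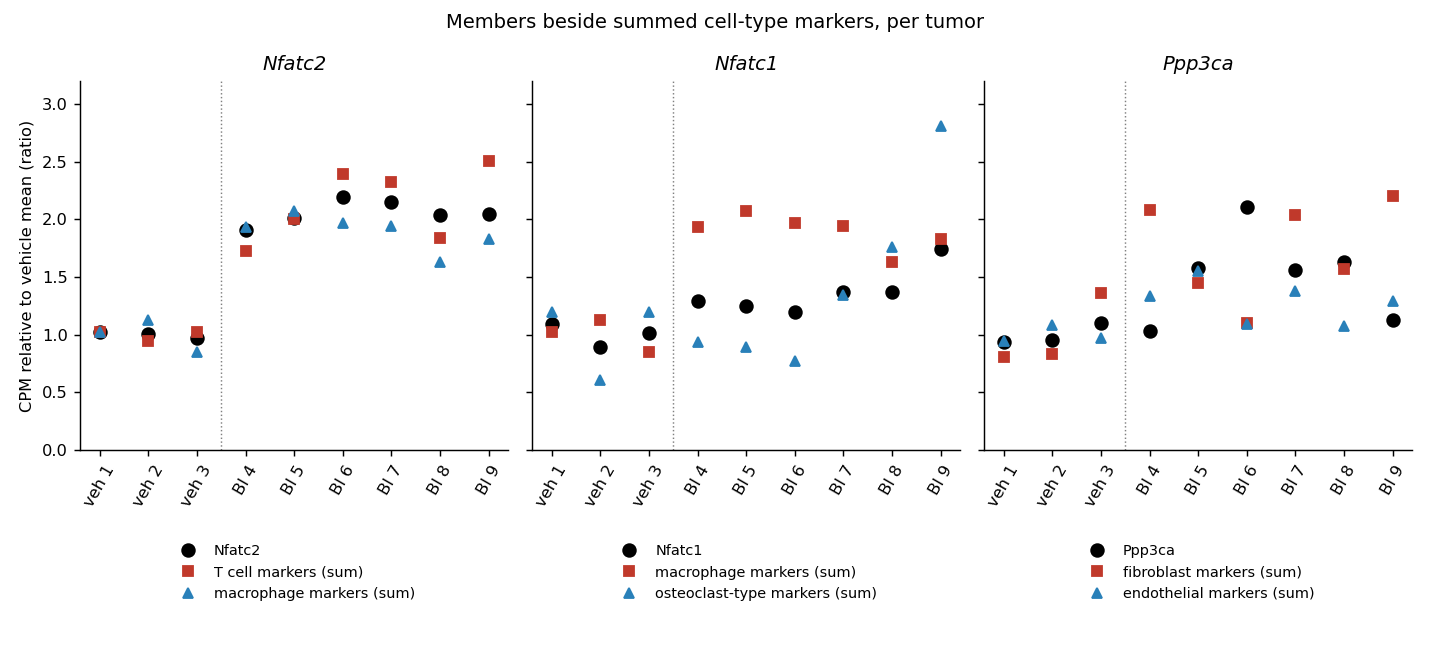
Nfatc2, Nfatc1 and Ppp3ca beside summed markers of cell types in each tumor, all as a ratio to the vehicle mean (vertical axis, CPM over CPM). For Nfatc2 and the T cell and macrophage sums every BI tumor lies above every vehicle tumor, whereas Ppp3ca and the fibroblast sum rank the BI tumors differently.

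Markers of other cell types were called too. All 6 mast cell markers rose, with sums of 41.8, 29.2 and 23.9 CPM in vehicle and 356, 176, 101, 107, 46.1 and 268 CPM in BI tumors (ratio 5.56, Tpsb2 most abundant, though Kit led in the vehicle tumors). Of 5 neutrophil markers 4 fell, with sums of 515, 739 and 640 CPM in vehicle and 208 to 361 CPM in BI tumors (ratio 0.453, S100a9 most abundant). Of 5 dendritic cell markers 3 rose, with sums of 42.1, 44.1 and 42.8 CPM in vehicle and 38.0 to 63.1 CPM in BI tumors. Itgax, the most abundant, was not called. Of 4 tested B cell markers 2 rose, with sums of 4.52 to 8.02 CPM in vehicle and 5.80 to 11.2 CPM in BI tumors (Cd79b most abundant, though Cd79a led in the vehicle tumors).

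Among stromal and tumor cell markers, calls were made in both directions, beside 14.6% of all genes called higher and 14.1% lower. Of 6 endothelial markers 3 rose, with sums of 165, 190 and 170 CPM in vehicle and 188 to 272 CPM in BI tumors. Pecam1, the most abundant, was not called. Of 6 fibroblast markers 1 rose, Col1a2, whereas Col1a1, the most abundant, was not called. The fibroblast sums were 1426, 1468 and 2395 CPM in vehicle and 1941 to 3880 CPM in BI tumors. Of 5 markers of pericytes and smooth muscle 1 rose (Acta2, the most abundant), and sums were 63.7, 57.8 and 73.9 CPM in vehicle and 69.5 to 83.0 CPM in BI tumors. Of 6 epithelial markers 2 fell, Krt8 and Krt18, and sums were 1111, 1176 and 953 CPM in vehicle and 747 to 955 CPM in BI tumors (Krt18 most abundant). None of the 6 osteoclast-type markers was called, and sums were 250, 127 and 251 CPM in vehicle and 162 to 588 CPM in BI tumors (Ctsk most abundant). None of 5 adipocyte or 4 tested skeletal muscle markers was called. The adipocyte sums were 64.1, 38.3 and 66.2 CPM in vehicle and 58.2 to 321 CPM in BI tumors (Fabp4 most abundant), and the muscle sums were 4.17 to 17.1 CPM in all tumors (Tnnt3 most abundant). No marker that was measured was at or under 3 counts in every tumor. The part of these cell types in the values of the 10 genes was not tested.

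The genes most like a member across the 9 tumors were ranked by Pearson r of log2 CPM over 12185 genes, as a description. The tumors share the treatment contrast, so that a high r includes the difference between groups. For Nfatc2 the closest were Rassf4 (r = 0.992), Fam78a (0.992) and C1qb (0.991). With the group means removed, r was 0.58, 0.51 and 0.75, and the closest genes were others, Sumf2 (0.965), Eomes (0.954) and Hsd17b4 (0.949). Rassf4 had 47.1 ± 4.30 CPM in vehicle and 116 ± 7.60 CPM in BI tumors, and C1qb, a complement gene of macrophages that is also in the marker list, had 273 ± 25.5 and 591 ± 44.2 CPM. For Ppp3ca they were Ggt5 (r = 0.985), Tnfrsf21 (0.979) and Lbp (0.970), and r stayed at 0.979, 0.978 and 0.946 with the group means removed. Lbp, the lipopolysaccharide-binding protein, ranked the BI tumors much as Ppp3ca did, with 136 CPM in replicate 6 and 11.3 CPM in replicate 4.

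For Nfatc1 the closest were Kbtbd11 (r = 0.983), Pros1 (0.981) and Slc37a2 (0.976), which all had their highest value in BI replicate 9, as Nfatc1 did. With the group means removed, r was 0.956, 0.947 and 0.951. For Nfatc4 they were Igsf10 (r = 0.978), Sp100 (0.975) and Slit3 (0.975), with 0.959, 0.953 and 0.958 after the group means were removed. Igsf10 had 7.02 ± 1.67 CPM in vehicle and 15.6 ± 6.98 CPM in BI tumors, high in replicates 4 and 9 and low in replicate 6, tumors that were also high and low for Nfatc4.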

How the data were processed

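The authors aligned reads of stranded mRNA libraries to mm9 with STAR, kept unique alignments and counted them per RefSeq gene with QuasR. What they deposited is a table of unnormalized counts with 18755 genes. Whether strand was used in counting is not given in the sources used here. TMM-normalized CPM, log2 CPM (prior count of 2) and RPKM were computed from them, RPKM with the deposited lengths. BI was compared with vehicle by edgeR 4.0.16 in R 4.3.3 (quasi-likelihood F test, filterByExpr with a minimum count of 10 and total of 15, Benjamini-Hochberg adjustment), without covariates. Alternatives were RLE or library size scaling, no filter or 1 CPM in 3 tumors, DESeq2 1.42.0, limma-voom 3.58.1 and leaving out each tumor.

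The members and lists were chosen with earlier results of these data known. Named genes were the members, the most abundant gene of each list, up to 3 genes with the smallest p in each direction per pathway list, and the 3 genes most like each of the 4 members with the largest difference. Of the genes that meet this rule, 1 is not reported here. Genes named outside this rule, after their values were seen, were those marked in the text and Krt5, Krt8, Krt14, Epcam, Col1a2, Acp5, Dcstamp, Kit, Cd79a, Csnk1a1, Sumf2, Eomes, Hsd17b4, Il2, Il3, Il4, Il5, Il13 and Cd40lg. Promoter windows come from a RefSeq table (GRCm38.p6) and were placed on mm9 by exact, unique match. Gene positions are GENCODE on mm9. Per gene, mean chi-square between tumors of a group was 8.83 to 30.0, where counting error alone gives 1, so none looked like a library deposited again.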

Additional observations from a re-analysis of the deposited data

Results flagged for a closer look

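In 105 sets of 6 BI tumors (each a gene given with values, a marker sum, or a share, sum or ratio of members), 8 had a single tumor far from the other 5, where chance alone gives about 1 in 20. The sets are not independent, since several genes were picked for their likeness to a member. Nfatc1 was 105 CPM in BI tumor 9, against 71.9 to 82.4 CPM in the others, and Kbtbd11, picked as a gene like Nfatc1, was 37.5 CPM there, against 21.8 to 27.5 CPM. Rcan1 was 24.4 CPM in BI tumor 8, against 22.2 to 22.9 CPM. Irf4 was 7.87 CPM in BI tumor 5, against 6.07 to 6.61 CPM. BI tumor 9 was also the highest for Fabp4, with 210.4 CPM against 41.0 to 102 CPM, and for the epithelial markers Epcam (10.3 against 1.98 to 4.18 CPM), Krt5 (1.68 against 0.228 to 0.676 CPM) and Krt14 (1.33 against 0.209 to 0.514 CPM).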

How the results depend on the processing

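The log2 fold change of each of the 10 members moved by less than the spread between tumors under the alternatives for scaling, filter and tool, and no called value changed sign. Over all genes, 1337 were higher and 498 lower when the study's cutoffs were applied to the edgeR fit made here. These are not the study's own counts, which came from its own edgeR analysis. Leaving out 1 tumor gave 1332 to 2026 higher and 1172 to 1980 lower, with the fewest without vehicle tumor 3. Of the members, 1 to 4 were then higher, and DESeq2 called 1 lower (Ppp3cb). Calcineurin regulators higher numbered 4 with RLE scaling and with either change of the filter, 5 by DESeq2 and 2 to 5 without 1 tumor. Without 1 tumor, NFAT kinases lower ranged from 0 to 2, calcium genes lower from 0 to 2 and partner factors lower from 1 to 3. Calcium genes lower were 0 with no filter and 0 with 1 CPM in 3 tumors. In the order per length, 6 genes had another rank over vehicle tumors and 2 over BI tumors. Of the 12 genes most like a member, 0 were shared with the group-centred ranking and 2 with Spearman's rho. The cause of these changes was not tested. With 3 vehicle tumors, the spread of that group rests on few values. No paired analysis was made, since the labels name no pairing of mice between the groups.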
